A study of Mus musculus with 18 samples.

Results

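This account covers 8 mouse CC chemokine genes that attract monocytes, Ccl2, Ccl7, Ccl8, Ccl12, Ccl3, Ccl4, Ccl6 and Ccl9, of 19752 genes measured. They were chosen by name as the monocyte-recruiting CC chemokines on chromosome 11. Each had exactly 1 probe set that carried its symbol alone, and all 8 were among the 15365 genes bright enough to be tested. CC chemokines are small secreted proteins, named for a pair of adjacent cysteines, that bind G protein-coupled receptors on passing leukocytes and set the direction of their movement. Ccl2, Ccl7 and Ccl12 act on Ccr2, the receptor that lets monocytes leave the bone marrow and enter tissue. Ccl3 and Ccl4 are macrophage inflammatory proteins. Ccl3 acts on Ccr1, as do the rodent chemokines Ccl6 and Ccl9. Dendritic cells are themselves a source of these proteins in inflamed tissue.

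RNA from 18 samples of mouse myeloid cells was measured on 1-colour Affymetrix gene arrays, 9 from BRAF and 9 from WT mice. BRAF mice carried the floxed BRAFV600E(CA-flox) allele together with CD11c-Cre, so that the active kinase is switched on where the CD11c promoter is active, as it is in dendritic cells and in some macrophages. WT mice were Cre-negative littermates with the same floxed allele. The 4 populations were bone marrow derived dendritic cells (BMDC, untreated cultures from the femurs of mice aged 5 weeks, with live CD11c+CD11b+ cells sorted; 3 arrays for each genotype), and CD11b+ cells of liver, CD11b+ cells of lung and CD103+ cells of lung, sorted from unmanipulated mice of 14 weeks (2 arrays for each genotype and sort). The study concerns RAF, MEK and ERK signalling and the migration of dendritic cells in Langerhans cell histiocytosis, a disease in which such cells build up in lesions. No label ties a replicate number to an animal or a culture. The spread behind every p-value is therefore that between samples and may be technical.

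All values below are log2 of the deposited array intensity, on which a difference of 1 is a 2-fold change, and a call is an adjusted p under 0.05 over all 15365 genes in limma. Array medians were 93.7 to 113.2 intensity units. Log2 signal had a narrow interquartile range on 2 arrays, BRAF BMDC replicate 2 (1.9) and WT liver replicate 3 (1.92), against 2.41 to 2.99 on the other 16 arrays, and the main BMDC differences and the liver signs that turn are also given without these 2 arrays. The genes of the sort markers followed the labels. Itgae, which encodes CD103, was 10.6 to 12.18 on the lung CD103+ arrays and 5.74 to 7.65 elsewhere. Itgam, which encodes CD11b, was 9.32 to 11.92 on the CD11b+ arrays, BMDC included, and 6.87 to 8.39 on the CD103+ arrays. Among the CD103+ arrays Itgam averaged 8.3 in BRAF and 6.89 in WT, without overlap and without a call (limma adjusted p = 0.377). Itgax, which encodes CD11c, was 10.66 to 12.18 on all 18 arrays. On the BMDC arrays 8 to 10 of 10 conventional dendritic cell markers were above the 30th percentile of the array, while Flt3, a receptor gene of that list, was 5.55 to 6.02. Total Braf signal differed between BRAF and WT by -0.12 to 0.32 with no call. The array does not tell the mutant from the normal allele, so this does not check the genotype. The 10 markers of hepatocytes and lung epithelium averaged 6.14 to 8.74 on the organ arrays, against 5.61 to 6.13 on the BMDC arrays. Alb, which encodes albumin, was 10.98 on BRAF lung CD103+ replicate 1 and 6.57 on replicate 2, against 7.8 and 5.94 on WT replicates 1 and 3. The source of this RNA was not tested.

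The 8 genes lie in a pair of clusters on mouse chromosome 11, in the RefSeq gene order of build GRCm38.p6. Ccl2, Ccl7, Ccl12 and Ccl8 form the first, with Ccl11 between Ccl7 and Ccl12. Ccl9, Ccl6, Ccl3 and Ccl4 form the second, 27 protein-coding genes further on. RefSeq promoter sequence matched 5 of the 8 genes, Ccl12, Ccl8, Ccl9, Ccl6 and Ccl3. The 250 bases before the start site are shown for 4 of them, read 5′ to 3′ on the gene's strand. Ccl12 and Ccl8 are neighbours whose BRAF minus WT differences in BMDC were 1.76 and 0.34, and Ccl9 and Ccl6 are neighbours whose differences in lung CD103+ cells were 2.95 and 1.22. Capitals mark the letters that matched 1 of 6 motifs searched on both strands.
Ccl12, chr11:82101595-82101844, plus strand: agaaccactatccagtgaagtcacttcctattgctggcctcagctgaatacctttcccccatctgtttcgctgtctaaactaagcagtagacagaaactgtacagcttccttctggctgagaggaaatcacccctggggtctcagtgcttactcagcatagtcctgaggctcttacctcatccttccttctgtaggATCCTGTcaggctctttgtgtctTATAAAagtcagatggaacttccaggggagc
Ccl8, chr11:82114935-82115184, plus strand: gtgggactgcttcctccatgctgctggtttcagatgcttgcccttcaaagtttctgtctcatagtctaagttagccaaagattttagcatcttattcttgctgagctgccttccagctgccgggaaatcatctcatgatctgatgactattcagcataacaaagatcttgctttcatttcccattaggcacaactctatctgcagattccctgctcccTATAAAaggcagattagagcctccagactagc
Ccl9, chr11:83578637-83578886, minus strand: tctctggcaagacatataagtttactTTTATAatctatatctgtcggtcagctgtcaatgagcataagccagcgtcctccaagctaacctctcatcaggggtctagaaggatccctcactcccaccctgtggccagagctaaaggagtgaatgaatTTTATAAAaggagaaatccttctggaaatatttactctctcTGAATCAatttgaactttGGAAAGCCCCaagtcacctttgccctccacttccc
Ccl6, chr11:83593088-83593337, minus strand: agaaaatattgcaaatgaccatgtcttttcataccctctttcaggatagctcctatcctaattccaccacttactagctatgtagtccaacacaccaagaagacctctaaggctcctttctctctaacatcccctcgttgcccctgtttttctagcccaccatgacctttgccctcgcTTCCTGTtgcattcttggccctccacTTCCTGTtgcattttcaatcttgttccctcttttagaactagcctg

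The AP-1 letters TGANTCA, the site of Fos and Jun dimers, were in the Ccl9 promoter alone of the 5, 53 to 47 bases before the start, and in 6.7% of 32851 mouse promoter windows of this length. The ETS letters ACCGGAA, with the searched variants ACAGGAA and, as the last of the set, ACAGGAT, the core bound by a family that includes ERK targets, were in Ccl12 once and in Ccl6 at 2 positions, all on the strand opposite to the gene, and in 12.9% of all windows. The NF-kB motif was in Ccl9 alone (16.5% of all windows), and overlapped none of the others. TATAAA was in Ccl12 and Ccl8, 26 to 32 bases before the start, and in Ccl9 at 3 positions on both strands, of which the last pair overlap (12.4%). The C/EBP letters TTGCNNAA (9.6%) and the interferon-sensitive motif (3.0%) were in none of the 5, and the Ccl3 window held no match. These matches describe letters and do not show binding.

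In BMDC, the Ccr2 ligands Ccl7 and Ccl2 rose in BRAF cells, by 32.9-fold and 15.7-fold. They were the only 2 of the 8 called, both higher, where 0.521% of all genes were called and 0.332% were called higher. Ccl7 had a log2 signal of 11.85, 10.89 and 11.83 on the BRAF arrays, against 6.48, 6.54 and 6.42 on the WT arrays. The lowest BRAF array was over 4 log2 units above the highest WT array. The difference was 5.04 ± 0.36 (SE, n = 3 each; limma adjusted p = 3.54e-06). Ccl2, the best known monocyte attractant of the family, read 12.28, 12.17 and 12.46 on the BRAF arrays, against 8.12, 8.15 and 8.7 on the WT arrays. These groups did not overlap either, and the difference was 3.98 ± 0.46 (SE, n = 3 each; limma adjusted p = 0.000705). Without the 2 arrays of narrow spread the differences were 5.36 ± 0.35 and 4.04 ± 0.54 (limma adjusted p = 2.08e-05 and 0.00595).

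The remaining first-cluster genes were dim in BMDC. Ccl12, which also acts on Ccr2, read 6.14, 7.19 and 6.63 in BRAF BMDC, against 4.88, 4.99 and 4.81 in WT BMDC. All 3 BRAF arrays were above the arrays' 30th percentile, which lay between 5.6 and 6.11, and the WT arrays were below it. The difference of 1.76 ± 0.40 did not pass (SE, n = 3 each; limma adjusted p = 0.0699) and was 1.49 without the narrow arrays (limma adjusted p = 0.271). Ccl8 was below the 30th percentile on all 6 BMDC arrays, with a difference of 0.34 ± 0.67, so no difference could be read at this signal. Ccl12 and Ccl8 were each above that percentile on 6 of the 18 arrays, and the other 6 genes on 18 of 18.

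In the second cluster, Ccl3 and Ccl4 were higher on every BRAF than on every WT BMDC array without a call. Ccl3, a ligand of Ccr1, read 12.76, 12.22 and 12.77 in BRAF, against 11.33, 11.15 and 11.18 in WT BMDC, a difference of 1.36 ± 0.46 (SE, n = 3 each; limma adjusted p = 0.482). Ccl4, its close relative, read 7.82, 6.93 and 8 in BRAF, against 6.75, 6.69 and 6.7 in WT BMDC, a difference of 0.87 ± 0.31 (SE, n = 3 each; limma adjusted p = 0.532). BRAF replicate 2, the array of narrow spread, was the lowest BRAF array for both, and without the narrow arrays the differences were 1.54 and 1.2 (limma adjusted p = 0.445 and 0.0569). The Ccr1 ligands Ccl6 and Ccl9 overlapped between genotypes, at 12.7 ± 0.40 and 11.92 ± 0.39 in BRAF, against 12.71 ± 0.09 and 12.01 ± 0.04 in WT BMDC (SD, n = 3 each). Their differences of -0.01 ± 0.27 and -0.09 ± 0.29 were 0.23 and 0.13 without the narrow arrays. In all, 5 of the 8 genes had BRAF arrays wholly above the WT arrays, against 6.99% of all genes, and their median difference was 1.12, against 0.003 over all genes. Summed intensity of monocyte markers was 7671 to 14233 in BRAF, against 9919 to 11155 in WT BMDC, and of macrophage markers 11779 to 20485 in BRAF, against 18715 to 21251 in WT BMDC. Both overlapped between genotypes, with 0 of 10 and 0 of 12 markers called. Neutrophil markers summed to 3563 to 4958 in BRAF, against 2619 to 2804 in WT BMDC, with 1 of 10 called, lower. Only 3 of these 10 had a positive difference, against 50.4% of all genes, with a median of -0.11. Their mean log2 signal was 6.59 in BRAF, against 6.81 in WT BMDC. Conventional dendritic cell markers summed to 4470 to 12342 in BRAF, against 14582 to 16097 in WT BMDC, with 1 of 10 called, lower. The part of these shifts in the Ccl2 and Ccl7 differences was not tested. In bulk RNA, more cells of a type and more RNA per cell cannot be told apart, here and in all comparisons below.

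**Figure D1:**
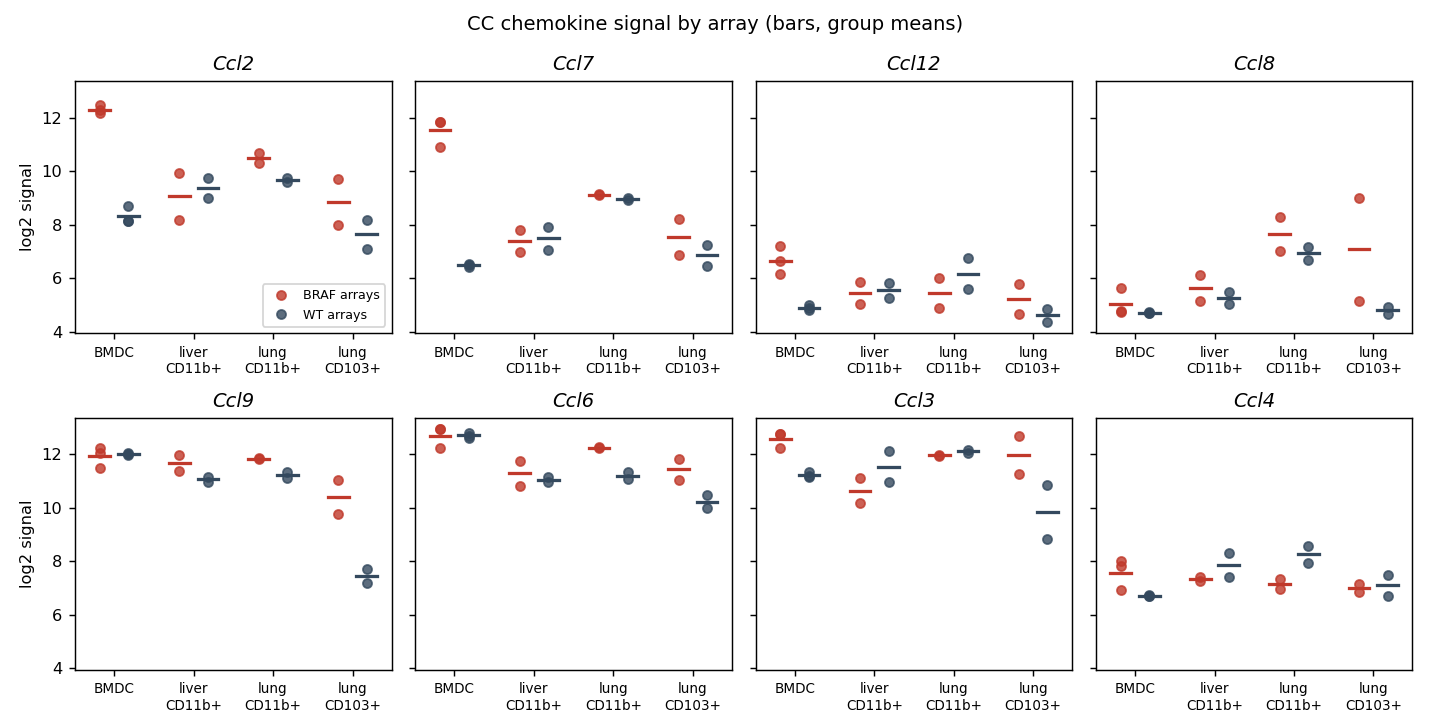
Log2 signal (y axis) of each chemokine on every array, BRAF in red left of WT in dark blue for each of 4 populations (x axis), with bars at group means; levels are not compared between genes. Ccl2 and Ccl7 in BRAF BMDC (10.89 to 12.46) stand above all WT BMDC arrays (6.42 to 8.7), and Ccl9 in WT lung CD103+ cells (7.18 and 7.73) stands below every other group.

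In lung CD103+ cells, the lung type 1 dendritic cell gate, Ccl9 rose 7.74-fold in BRAF cells and was the only 1 of the 8 called, where 0.0846% of all genes were called and 0.0456% were called higher. Ccl9, also known as macrophage inflammatory protein 1 gamma, read 11.04 and 9.77 in BRAF, against 7.73 and 7.18 in WT cells. The groups did not overlap, and the difference was 2.95 ± 0.35 (SE, n = 2 each; limma adjusted p = 0.00484). Leaving out BRAF replicate 1 gave 2.32 and leaving out BRAF replicate 2 gave 3.58, and the call was lost in a fit of only the 4 CD103+ arrays (limma adjusted p = 0.373). Outside the CD103+ sort, Ccl9 spanned 10.98 to 12.23 in the 6 other groups, so WT CD103+ cells were low and BRAF CD103+ cells nearer to the rest.

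Its neighbours Ccl6 and Ccl3 were also higher on both BRAF than on both WT CD103+ arrays, without a call. Ccl6 read 11.84 and 11.06 in BRAF, against 10.47 and 9.98 in WT cells, a difference of 1.22 ± 0.33 (SE, n = 2 each; limma adjusted p = 0.307). Ccl3 read 12.69 and 11.25 in BRAF, against 10.87 and 8.83 in WT cells, a difference of 2.12 ± 0.57 (SE, n = 2 each; limma adjusted p = 0.285), and it was called only when WT replicate 1 was left out (3.14, limma adjusted p = 0.0131). Ccl4, the last gene of that cluster, read 6.85 and 7.14 in BRAF, against 7.5 and 6.7 in WT cells, and the arrays overlapped.

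Ccl8 rested on a single CD103+ array. Ccl8, described in mice as a ligand of Ccr8, read 9.01 and 5.14 in BRAF, against 4.94 and 4.68 in WT cells. The difference was 2.27 ± 0.82 (SE, n = 2 each; limma adjusted p = 0.675), and it came to 0.33 with BRAF replicate 1 left out and to 4.2 with BRAF replicate 2 left out, when it was a call (limma adjusted p = 0.00186). Ccl2 read 9.7 and 7.98 in BRAF, against 8.17 and 7.11 in WT cells, Ccl7 8.22 and 6.86 against 7.25 and 6.46, and Ccl12 5.8 and 4.68 against 4.86 and 4.38. For these 3 Ccr2 ligands BRAF replicate 1 was the highest array, BRAF replicate 2 lay between the WT arrays, and the differences of 1.2, 0.69 and 0.62 did not pass (limma adjusted p = 1 each). In all, 4 of the 8 genes had BRAF arrays wholly above WT, against 9.16% of all genes, and the median difference was 1.21, against -0.085 over all genes. Ccl8, counted among these 4, was above the 30th percentile on BRAF replicate 1 alone. Ccl12 was below the 30th percentile on every CD103+ array.

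Macrophage and monocyte marker levels differed beside these values. Against 35% of all genes, all 12 measured macrophage markers had a positive BRAF minus WT difference in lung CD103+ cells. These markers had a median of 2.32 and 1 called, the Fc receptor gene Fcgr4. Their summed intensity was 21659 and 9701 in BRAF, against 6802 and 3991 in WT cells, and all 12 were above the 30th percentile on each array except WT replicate 3, where 9 were. The 10 monocyte markers summed to 13740 and 8876 in BRAF, against 4850 and 4497 in WT cells, with 7 of 10 differences positive and 0 called. Type 1 dendritic cell markers summed to 19568 and 24442 in BRAF, against 25185 and 26780 in WT cells, with 1 of 8 called lower. Epithelial and hepatocyte markers summed to 12253 and 2637 in BRAF, against 4821 and 1652 in WT cells. The part of these other cells in the differences of Ccl9, Ccl6, Ccl3 and Ccl8 was not tested.

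**Figure D2:**
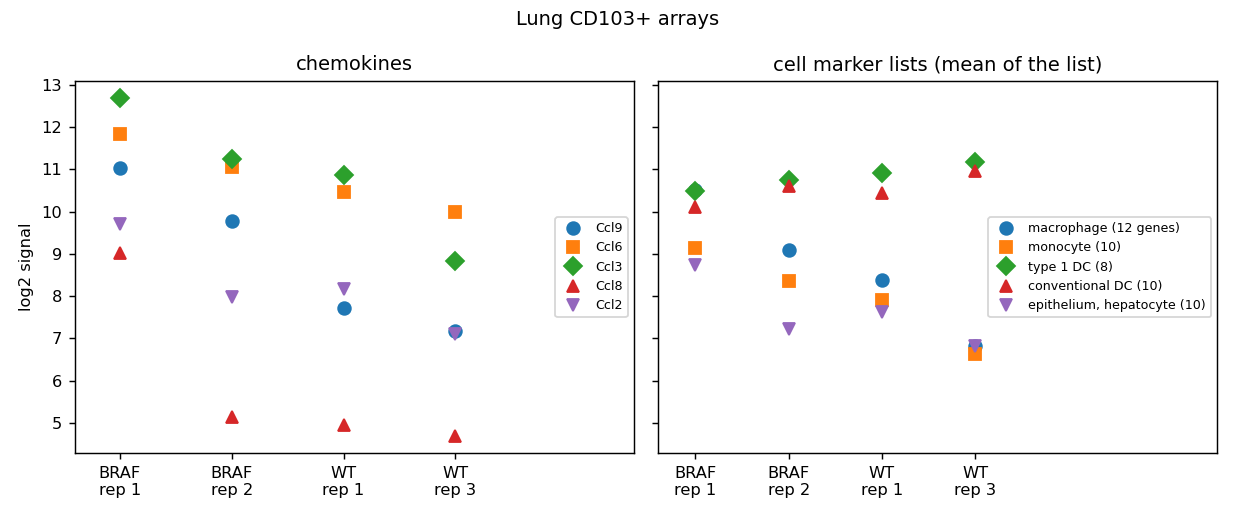
Log2 signal (y axis) on the 4 lung CD103+ arrays, BRAF replicates 1 and 2 left of WT replicates 1 and 3 (x axis): single chemokines on the left, means of cell marker lists on the right. From left to right Ccl9 falls (11.04 and 9.77 in BRAF, 7.73 and 7.18 in WT). The macrophage list (10.52 and 9.09 in BRAF, 8.38 and 6.81 in WT) and the monocyte list (9.13 and 8.35, 7.9 and 6.63) fall likewise. The type 1 dendritic cell list rises in the same order (10.48 and 10.75 in BRAF, 10.92 and 11.18 in WT). The part of these lists in the chemokine values was not tested.

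In lung CD11b+ cells 0 of the 8 genes were called by limma, where 0.338% of all genes were, and 2 had an unadjusted p under 0.05, as did 6.71% of all genes. Ccl6 read 12.26 and 12.22 in BRAF, against 11.07 and 11.34 in WT cells, a difference of 1.03 ± 0.33 (SE, n = 2 each; limma adjusted p = 0.34). Ccl4 read 7.36 and 6.95 in BRAF, against 7.93 and 8.59 in WT cells, a difference of -1.11 ± 0.38 (SE, n = 2 each; limma adjusted p = 0.391). Both were called with array weights (limma adjusted p = 0.0211 and 0.0393), a setting in which 369 genes were called in all, against 52 without weights. Ccl9 read 11.82 and 11.86 in BRAF, against 11.11 and 11.33 in WT cells, a difference of 0.62 ± 0.35 that did not pass. Ccl2 read 10.31 and 10.67 in BRAF, against 9.61 and 9.74 in WT cells, and Ccl7 9.13 and 9.12 against 8.94 and 8.99. Differences of 0.82 ± 0.56 and 0.16 ± 0.45 stood where BMDC had 3.98 and 5.04. Of the 8 genes, 4 were wholly higher and 2 wholly lower in BRAF, against 21.6% and 24.8% of all genes with 2 arrays per group, and the median was 0.39, against 0.003 over all genes. Ccl3 was 11.95 and 11.99 in BRAF, against 12.18 and 12.06 in WT cells, the second gene wholly lower, by 0.15 on the log2 scale without a call. Ccl12 was 5.99 and 4.88 in BRAF, against 5.59 and 6.75 in WT cells, and its arrays overlapped. Ccl8 was 8.3 and 7.02 in BRAF, against 6.67 and 7.18 in WT cells. BRAF replicate 1, its highest lung CD11b+ array, also had the highest mean of 8 Kupffer cell markers, 9.19, with 6.25 on BRAF replicate 2, against 6.88 on each WT array. Alveolar macrophage markers summed to 2975 and 8289 in BRAF, against 2063 and 1404 in WT cells, with 0 of 8 called. Conventional dendritic cell markers averaged 8.95 and 9.6 in BRAF, against 10.23 and 10.27 in WT cells, with 1 of 10 called, lower. Type 2 dendritic cell markers summed to 11858 and 15800 in BRAF, against 21865 and 22054 in WT cells, with 0 of 8 called. The part of these shifts in the chemokine values was not tested.

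In liver CD11b+ cells 0 of the 8 genes were called by limma, where 0.215% of all genes were, and 0 had an unadjusted p under 0.05, as did 14.1% of all genes. Ccl2 read 9.95 and 8.16 in BRAF, against 9.01 and 9.75 in WT cells, and Ccl7 7.82 and 6.97 against 7.07 and 7.93. In both the BRAF arrays enclosed or overlapped the WT range, and the differences were -0.33 ± 0.56 and -0.11 ± 0.45. Ccl3 had the most negative difference, at 11.11 and 10.18 in BRAF, against 12.11 and 10.98 in WT cells (-0.90 ± 0.57, SE, n = 2 each; limma adjusted p = 0.459). Ccl9 was 11.96 and 11.37 in BRAF, against 11.16 and 10.98 in WT cells, the only 1 of the 8 wholly higher in BRAF, where 22.7% of all genes were (0.59 ± 0.35, SE, n = 2 each; limma adjusted p = 0.435). Ccl4 was the only 1 wholly lower (15.8% of all genes), at 7.4 and 7.28 in BRAF, against 8.31 and 7.41 in WT cells. Ccl6 was 11.77 and 10.81 in BRAF, against 11.16 and 10.95 in WT cells, and its arrays overlapped. The dim gene Ccl12 was 5.85 and 5.04 in BRAF, against 5.27 and 5.84 in WT cells. Ccl8, also dim, was 5.16 and 6.12 in BRAF, against 5.03 and 5.48 in WT cells. Only Ccl12 on BRAF replicate 2 and Ccl8 on BRAF replicate 3 lay above the 30th percentile of their array. The median of the 8 was -0.11, against 0.079 over all genes. Monocyte markers summed to 14774 and 19365 in BRAF, against 10383 and 13734 in WT liver cells, with 0 of 10 called. Signs in liver rest on few arrays: without WT replicate 3, the array of narrow spread, the Ccl2, Ccl7 and Ccl12 differences were 0.04, 0.33 and 0.17, and those of Ccl3 and Ccl4 were -1.46 and -0.97, without a call.

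**Figure D3:**
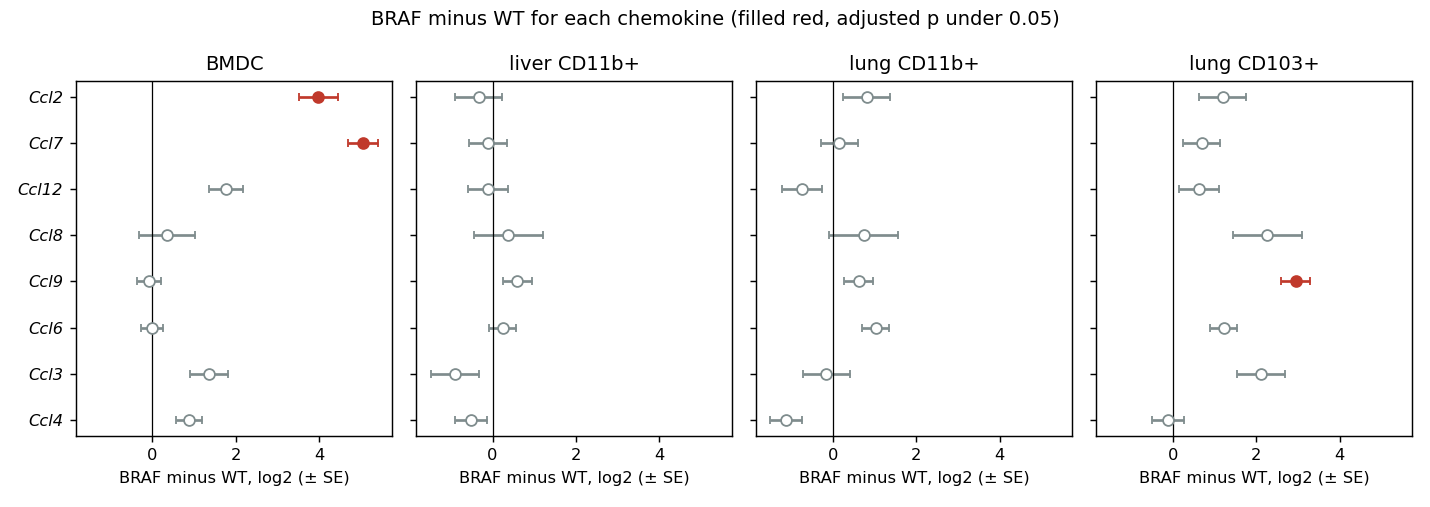
BRAF minus WT difference in log2 signal (x axis, points with SE bars) of the 8 chemokines (y axis, in their order on the chromosome) in 4 populations, 3 arrays per genotype in BMDC and 2 in the others. Filled red points are calls: Ccl7 (5.04) and Ccl2 (3.98) in BMDC and Ccl9 (2.95) in lung CD103+ cells.

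Averaged over the 4 populations, Ccl7, Ccl2 and Ccl9 were higher in BRAF cells. These 3 of 8 were called, where 0.989% of all genes were and 0.488% were called higher. The mean differences were 1.44 ± 0.21 for Ccl7, 1.42 ± 0.27 for Ccl2 and 1.02 ± 0.17 for Ccl9 (SE over 18 arrays; limma adjusted p = 0.00408, 0.0198 and 0.0092). The mean of Ccl7 and Ccl2 was carried by BMDC, since no difference in the other populations exceeded 0.69 for Ccl7 and 1.2 for Ccl2, and that of Ccl9 by lung CD103+ cells, at 2.95, against -0.09 to 0.62 elsewhere. In the same mean, where 47.4% of all genes had a positive difference, 12 of 12 macrophage markers did, with 2 called. Of 10 conventional dendritic cell markers 0 did, with 2 called lower. The part of these marker shifts in the chemokine means was not tested. The Ccl2 call was lost without WT liver replicate 1 or either WT lung CD11b+ array (limma adjusted p up to 0.0642). Ccl6 had a mean difference of 0.62 ± 0.16 that did not pass (limma adjusted p = 0.0931). Ccl8 was the only gene of the 8 with a positive difference in all 4 populations, as were 4.99% of all genes. Its mean difference was 0.93 ± 0.39 (limma adjusted p = 0.437). The Ccl8 signs in BMDC and liver carry little weight, since the gene was dim there. The BMDC difference of Ccl8 was 0.048 without the 2 arrays of narrow spread. Its liver difference turned to -0.1 without BRAF liver replicate 3.

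The size of the BRAF difference differed between the populations for Ccl7. BMDC also differ from the organ sorts in age and culture, which cannot be told apart from the population in these tests. In the F test of the 4 differences, Ccl7 was the only 1 of the 8 called (limma adjusted p = 0.00141), where 0.124% of all genes were. Ccl9 and Ccl2 missed the threshold (limma adjusted p = 0.0511 and 0.0693) and the other 5 ranged from 0.347 to 0.714. In pairs, the Ccl7 difference in BMDC exceeded that in liver CD11b+ cells by 5.15 ± 0.57, in lung CD11b+ cells by 4.88 ± 0.57 and in lung CD103+ cells by 4.35 ± 0.57 (SE; limma adjusted p = 0.0011, 0.00345 and 0.00704). Calls made up 0.137%, 0.13% and 0.0521% of all genes in these pairs. The Ccl2 difference was larger in BMDC than in liver by 4.30 ± 0.72 (SE; limma adjusted p = 0.0245), a call lost without the 2 narrow arrays (3.999, limma adjusted p = 0.118). Ccl9 was the opposite case, where the difference in BMDC minus that in lung CD103+ cells was -3.04 ± 0.45 (SE; limma adjusted p = 0.0166), a call lost without BRAF lung CD103+ replicate 1 (-2.41, limma adjusted p = 0.109).

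Without Cre, the same genes differed in level between populations. WT lung CD103+ cells had less signal than WT lung CD11b+ cells for all 8, with a median difference of -2.08, against 0.072 over all genes. Of these, 3 were called, all lower, where 3.75% of all genes were called and 2.37% were called lower. Ccl9 was 13.6-fold lower, at 7.73 and 7.18 in CD103+, against 11.11 and 11.33 in CD11b+ cells (-3.77 ± 0.35, SE, n = 2 each; limma adjusted p = 1.56e-05). Ccl7 was lower by 2.11 ± 0.45 and Ccl3 by 2.27 ± 0.57 (SE, n = 2 each; limma adjusted p = 0.0125 and 0.0351), and each of these calls was lost when WT lung CD11b+ replicate 1 or 3 or WT CD103+ replicate 3 was left out (limma adjusted p up to 0.184 and 0.475). The other 5 differences ranged from -0.98 for Ccl6 to -2.11 for Ccl8. Ccl8 and Ccl12 were below the 30th percentile on both WT CD103+ arrays. Macrophage markers summed to 6802 and 3991 in WT CD103+, against 24766 and 33440 in WT lung CD11b+ cells. Type 1 dendritic cell markers summed to 25185 and 26780, against 2214 and 3206. The part of these marker shifts in the chemokine levels was not tested. The WT CD103+ arrays are also those against which the BRAF CD103+ arrays were compared, so the low Ccl9 level here and the rise of Ccl9 in BRAF cells share samples. In BRAF mice, Ccl9 was likewise lowest in CD103+ cells, at 10.41 ± 0.89, against 11.66 to 11.92 in the other populations.

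WT BMDC differed from WT lung CD11b+ cells in 3 of the 8 genes, 1 higher and 2 lower in BMDC, where 8.14% of all genes were called, 3.66% higher and 4.47% lower. Ccl7 was lower in BMDC by 2.48 ± 0.41 and Ccl4 by 1.55 ± 0.34, and Ccl6 was higher by 1.5 ± 0.30 (SE, n = 3 and 2; limma adjusted p = 0.00119, 0.0109 and 0.00605). The Ccl4 call was lost without WT lung CD11b+ replicate 3 and the Ccl6 call without replicate 1 (limma adjusted p = 0.153 and 0.105). Age and culture differ together with the population in this comparison and cannot be told apart. WT liver and WT lung CD11b+ cells had no call among the 8 in limma, where 2.08% of all genes were called. Of the 8, 1 had an unadjusted p under 0.05, as did 24.7% of all genes. All 8 were lower in liver, by 0.15 to 1.67, where 46.3% of all genes had a positive difference. With quantile normalization the differences of Ccl2, Ccl6 and Ccl9 were 0.122, 0.036 and 0.043. That of Ccl4 was 0.047 without WT liver replicate 3. For Ccl7 the order of WT levels was lung CD11b+ (8.96 ± 0.04), liver (7.5 ± 0.61), lung CD103+ (6.85 ± 0.55) and BMDC (6.48 ± 0.06; SD, n = 2, 2, 2 and 3), where liver overlapped lung CD103+ and lung CD103+ overlapped BMDC. In BRAF mice BMDC came first (11.52 ± 0.55), then lung CD11b+ (9.12 ± 0.01), lung CD103+ (7.54 ± 0.96) and liver (7.39 ± 0.60), and only the last pair overlapped. Ccl2 also ranked first in BRAF BMDC, at 12.3 ± 0.14, while WT BMDC, at 8.33 ± 0.33, ranked after lung CD11b+ and liver cells (SD, n = 3 each).

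Across the 18 arrays, which share the 8 group means above, Ccl2 and Ccl7 were the most alike pair of the 8 (Pearson r = 0.95), followed by Ccl2 and Ccl12 (0.82), Ccl7 and Ccl12 (0.80) and Ccl6 and Ccl9 (0.80). Ccl8 and Ccl4 were less like the rest, with r from -0.04 to 0.37 and from -0.14 to 0.49. Ccl8 lay above the 30th percentile on only 6 of the 18 arrays. Of all other tested genes, Mmp13, the collagenase gene, was the most like Ccl2, Ccl7 and Ccl12 (r = 0.905, 0.924 and 0.894), and Arg1, which breaks down arginine, came second for Ccl2 and Ccl7 (0.884 and 0.892). In BMDC Mmp13 averaged 10.36 ± 0.40 in BRAF and 6.25 ± 0.16 in WT (SD, n = 3 each), as a gene chosen for its likeness to Ccl2 and Ccl7 on these arrays. The next most alike genes were the neutrophil chemokine Cxcl3 for Ccl2 (0.87), the serpin Serpinb2 for Ccl7 (0.874) and Edil3 for Ccl12 (0.76), which had F3, the tissue factor gene, second (0.776). Ccl9 was most like the lysosomal membrane gene Lamp1 (0.959), Hacd4 (0.954) and the lectin receptor Clec4a2 (0.948), and Ccl6 like the transcription factor Mitf (0.971), Clec4n (0.968) and the lipase Lpl (0.965). Ccl8 was most like Tm4sf19 (0.958), the folate receptor Folr2 (0.882) and the adhesion molecule Vcam1 (0.879), Ccl3 like Ier3 (0.899), Tlr7 (0.858) and Lilr4b (0.84), and Ccl4 like Jun (0.8), Cd69 (0.781) and Sowahc (0.768). These r values describe the arrays and carry no test.

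**Figure D4:**
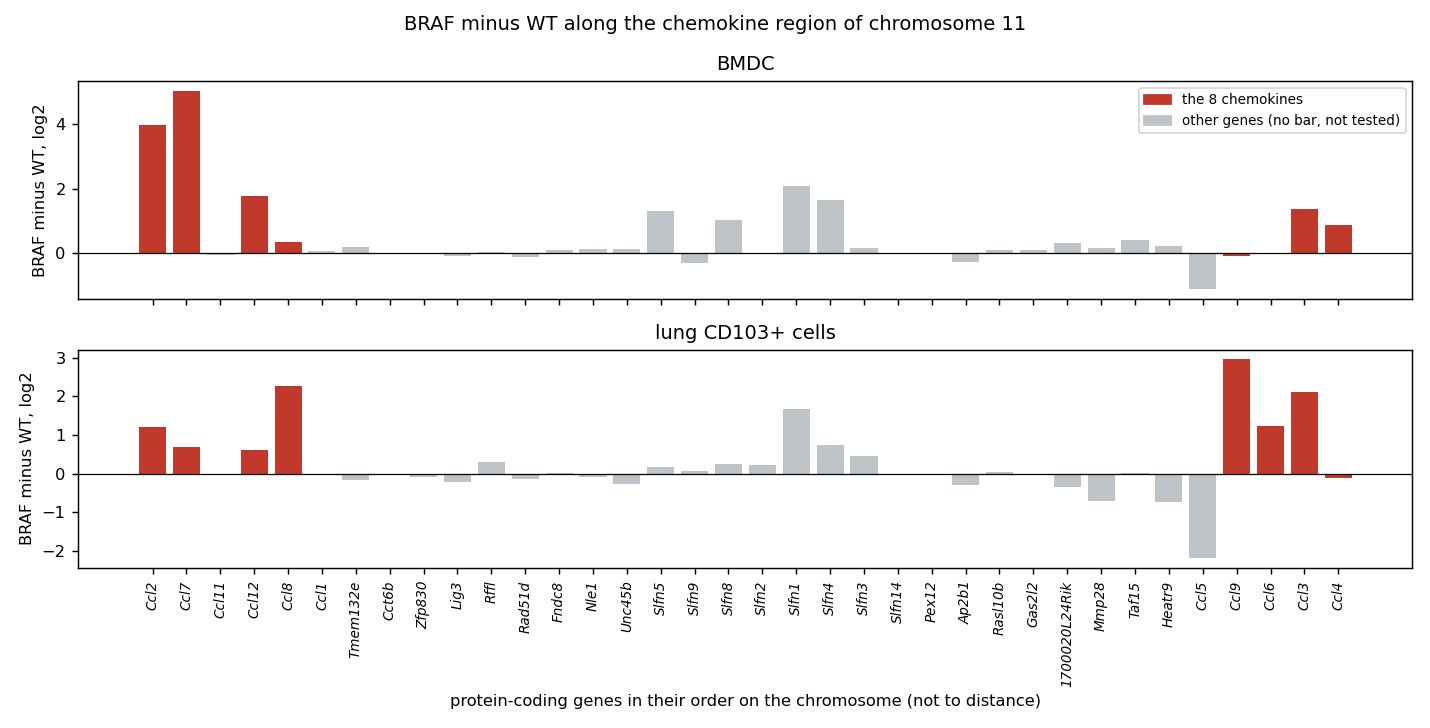
BRAF minus WT difference in log2 signal (y axis) for protein-coding genes from Ccl2 to Ccl4 in their order on chromosome 11 (x axis, not to distance), in BMDC (top) and lung CD103+ cells (bottom), with the 8 chemokines in red; a gene with no bar was not tested or lies at 0. The tall bars are at Ccl2 and Ccl7 in BMDC (3.98 and 5.04) and at Ccl9, Ccl8 and Ccl3 in lung CD103+ cells (2.95, 2.27 and 2.12), with Slfn1, which is no chemokine gene, at 2.09 and 1.68 and Ccl5 at -1.13 and -2.18.

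Of the chemokine genes that neighbour the 8, none was called within a population, where 0.0846% to 0.521% of all genes were. A count of none is near that background. Ccl11, an eosinophil attractant between Ccl7 and Ccl12, differed by -0.06 and Ccl1, next to Ccl8, by 0.06 in BMDC. Ccl5, a T cell attractant next to Ccl9, was lower on every BRAF than on every WT array in all 4 populations. Of all genes, 15.8% were wholly lower in BRAF in liver and 24.8% in lung CD11b+ cells. The Ccl5 differences were -1.13 in BMDC, -1.74 in liver CD11b+, -1.86 in CD11b+ and -2.18 in CD103+ cells of lung (limma adjusted p = 0.244, 0.0965, 0.0619 and 0.0573). The mean Ccl5 difference of -1.73 ± 0.19 passed (SE over 18 arrays; limma adjusted p = 0.000287), where 0.989% of all genes were called. In lung CD103+ cells Ccl5 read 8.68 and 9.11 in BRAF, against 11.74 and 10.42 in WT cells, where Ccl9 differed in the opposite direction.

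Of 7 CC receptor and decoy genes tested, 0 were called in any population or in the mean by limma, where 0.0846% to 0.989% of all genes were, so that a count of 0 is near the background. Their medians were -0.13 to 0.26. Ccr2, the receptor of Ccl2 and Ccl7, differed by -0.32 in BMDC, 0.30 in liver CD11b+, and, in lung, -0.05 in CD11b+ and -0.61 in CD103+ cells. Ccr1, the receptor of Ccl9 and Ccl6, averaged 8.46 in BRAF and 5.95 in WT lung CD103+ cells, a difference of 2.51 ± 0.56 (SE, n = 2 each; limma adjusted p = 0.145) beside the macrophage markers given above.

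Other chemokines went both ways. Of 9 further CC ligands tested, Ccl24, an eosinophil attractant, was the only call within a population, lower in liver (0.215% of all genes called) at 5.86 and 6.32 in BRAF, against 7.82 and 7.72 in WT cells (-1.68 ± 0.30, SE, n = 2 each; limma adjusted p = 0.0377). In the mean over populations, where 0.989% of all genes were called, Ccl5, Ccl17 and Ccl22 were lower, the last 2 by 2.02 ± 0.34 and 2.06 ± 0.33 (SE over 18 arrays; limma adjusted p = 0.0108 and 0.00793). Ccl17 and Ccl22 attract T cells through Ccr4. Of 14 CXC and related ligands tested, 3 were called in BMDC, where 0.521% of all genes were. Cxcl3 and Ppbp, ligands of the neutrophil receptor Cxcr2, rose by 1.61 ± 0.25 and 1.79 ± 0.32, and Cxcl16 fell by 1.83 ± 0.30 (SE, n = 3 each; limma adjusted p = 0.00822, 0.0185 and 0.0108). Cxcl3 read 7.76, 7.5 and 8.26 in BRAF, against 6.08, 6.19 and 6.42 in WT BMDC. That list had a median of 0.51 in BMDC, against 1.12 for the 8 monocyte attractants and -0.06 for the other CC ligands.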

How the data were processed

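RNA of 18 samples was measured on 1-colour Affymetrix gene arrays. The labels' protocols name Trizol for RNA extraction and a biotin label. The deposited values are probe set intensity on a linear scale; the sources used here do not say how the authors summarized and normalized the intensity values. From these values log2 was computed without a pseudocount, and no further normalization was applied. Of 24922 probe sets, 21425 carried 1 symbol, 1399 several and 2098 none in the table used; for a gene with several, the set with the highest mean was kept. A gene was tested when 2 or more arrays had it above their own 30th percentile.

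limma 3.58.1 (R 4.3.3; tables and plots in Python 3.11.15, numpy 2.4.6, pandas 2.3.3, matplotlib 3.10.9) was fitted with a mean per group over all 18 arrays (10 residual and 4.8 prior degrees of freedom), since 6 of 8 groups hold 2 arrays. p-values were adjusted by Benjamini-Hochberg over 15365 genes. On simulated data for 15365 genes the fit recovered 59%, 38%, 31% and 33% of log2 changes of 1, and 86%, 84%, 80% and 85% of log2 changes of 2, in BMDC, liver, lung CD11b+ and lung CD103+ cells. The number of arrays limits the precision, and the table holds no detection calls.

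The 8 genes, the gene and marker lists and the tests were chosen with earlier results of these data known. Named genes were the 8 chemokines, called members of the lists or those with the smallest p, chromosomal neighbours, and the 3 genes most like each by Pearson r. Promoter sequence is RefSeq, build GRCm38.p6; no build is named for the arrays. Alternatives were 2 other scalings, 2 other filters, averaging probe sets per gene, trend and robust moderation, array weights, only the groups compared, a replicate block, and leaving out single arrays or the 2 of narrow spread.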

Additional observations from a re-analysis of the deposited data

Results flagged for a closer look

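Of the 8 chemokines, 3 were called in a test of whether the BRAF minus WT difference differed between populations. Age and culture differ between BMDC and the organ sorts and cannot be told apart from the population here. Ccl7 alone was called in the F test, where 0.124% of all genes were. Ccl2 and Ccl9 missed it (limma adjusted p = 0.0693 and 0.0511). These 2 were each called in a single pairwise test, not adjusted across pairs, where 0.137% and 0.0521% of all genes were called. For Ccl7 the F test over the 4 populations gave a limma adjusted p of 0.00141, and the difference in BMDC exceeded those in CD11b+ cells of liver, CD11b+ cells of lung and CD103+ cells of lung by 5.15, 4.88 and 4.35 log2 units. These pairwise calls held under every alternative run, without each array in turn included (limma adjusted p up to 0.0433). For Ccl2 the difference in BMDC exceeded that in liver by 4.3 log2 units, a call lost without BRAF BMDC replicate 1 or 3, BRAF liver replicate 3, WT BMDC replicate 1 or 2 or WT liver replicate 3 (3.407 to 4.315, limma adjusted p up to 0.137), with the replicate block and without the 2 arrays of narrow spread. For Ccl9 the difference in BMDC minus that in lung CD103+ cells was -3.04 log2 units, a call lost without BRAF BMDC replicate 1, BRAF lung CD103+ replicate 1, any WT BMDC array or WT lung CD103+ replicate 3 (limma adjusted p up to 0.109) and held in the 13 other alternatives.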

How the results depend on the processing

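Of 1295 alternative values for the 8 genes, 1192 kept their direction and their side of the threshold, 47 became calls, 27 lost a call and 29 changed sign. The BMDC calls of Ccl7 and Ccl2 held in all 16 alternatives each, at 4.88 to 5.36 and 3.88 to 4.26. The lung CD103+ call of Ccl9 held without each array in turn (2.32 to 3.58).

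The count called of the 8 was 5 in BMDC, 2 in lung CD11b+ cells, 4 in the F test and 8 in both WT comparisons with lung CD11b+ of BMDC and of CD103+ cells when arrays were weighted, against 2, 0, 1, 3 and 3. That setting also raised the calls over all genes, to 1656, 369, 249, 4668 and 1280, against 80, 52, 19, 1250 and 576. With only the groups compared it was 0 in lung CD103+ cells, against 1, 8 in WT BMDC minus lung CD11b+ (4195 genes called in all) and 1 in WT liver minus lung CD11b+. The F test gave 2 with no filter, the 50th percentile filter and trend and robust moderation, where Ccl9 joined Ccl7. Leaving out 1 array gave 1 to 2 in lung CD103+ cells, 2 to 5 in the mean (5 without BRAF lung CD103+ replicate 2), 1 to 4 in the F test (4 without that array) and 1 to 3 in WT CD103+ minus CD11b+.

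No value that changed sign was a call. In BMDC, quantile normalization, array weights and leaving out the narrow arrays gave 0.218, 0.254 and 0.227 for Ccl6 and 0.17, 0.084 and 0.131 for Ccl9. Single arrays left out gave -0.125 to 0.227 and -0.238 to 0.131. In liver without the narrow arrays Ccl2, Ccl7 and Ccl12 were 0.043, 0.325 and 0.17, and Ccl12 was 0.083 after quantile normalization. Single arrays left out gave -1.223 to 0.57 for Ccl2, -0.539 to 0.325 for Ccl7, -0.1 to 0.867 for Ccl8, -0.519 to 0.293 for Ccl12 and -0.244 to 0.714 for Ccl6. Ccl4 in lung CD103+ cells ranged from -0.508 to 0.29. In WT liver minus lung CD11b+, quantile normalization gave 0.122, 0.036 and 0.043 for Ccl2, Ccl6 and Ccl9, and the narrow arrays left out gave 0.047 for Ccl4. Single arrays left out gave -0.667 to 0.072 for Ccl2 and -0.85 to 0.047 for Ccl4. The cause of these changes was not tested.

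Calls over all genes, whichever alternative was taken, ranged from 20 to 1656 in BMDC (80 as reported), 1 to 358 in liver (33), 7 to 369 in lung CD11b+ (52), 0 to 96 in lung CD103+ cells (13), 67 to 324 in the mean (152) and 5 to 249 in the F test (19). In the WT comparisons they ranged from 446 to 4668 in BMDC (1250), 14 to 2093 in liver (319) and 251 to 1280 in CD103+ cells (576), each against lung CD11b+. Scalings moved the median of all genes by -0.083 to 0.066.

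Of 3 same-numbered BMDC pairs, 1 deviated together across genes (r = 0.469) and the others did not (-0.231 and -0.399). Same-numbered lung CD103+ and CD11b+ arrays had r = 0.22 in BRAF and 0.159 in WT, the same for both pairs of a genotype by construction, and the labels do not say whether they share an animal. With the replicate block 48 genes were called in BMDC, 116 in the mean, 7 in the F test and 510 in WT CD103+ minus CD11b+, and of the 8 genes 2, 3, 1 and 3. It lost the Ccl2 difference between BMDC and liver (limma adjusted p = 0.0874). For the genotype comparisons within liver and within each lung sort no block could be fitted, since the genotypes share only 1 number there. Where leaving out an array left 1 in a group, that array is assumed to vary like the other groups.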

Other observations

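Between the chemokine clusters lies the Schlafen family, whose members respond to interferon. Slfn1, Slfn4 and Slfn8 were the only non-chemokine genes of the interval called in a population. All were higher in BRAF BMDC, where 0.521% of all genes were called and 0.332% were called higher. The other Schlafen genes tested, Slfn5, Slfn2, Slfn3 and Slfn9, differed there by 1.32, -0.02, 0.16 and -0.3, without a call. Slfn1 read 10.9, 10.36 and 10.48 in BRAF, against 8.23, 8.5 and 8.74 in WT BMDC, a difference of 2.09 (limma adjusted p = 0.0148). Slfn4 and Slfn8 rose by 1.66 and 1.04 (limma adjusted p = 0.0221 each). Their differences in liver CD11b+ cells were -1.51, -0.55 and -0.44, without a call.

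Of 10 inflammatory cytokines and 7 monocyte growth factor and receptor genes tested, 0 were called by limma in any population or the mean, near the 0.0846% to 0.989% of all genes called. Il1a averaged 10.77 in BRAF and 7.94 in WT lung CD11b+ cells (2.83 ± 0.76, SE, n = 2 each; limma adjusted p = 0.179), and Il6 averaged 5.06 in BRAF and 6.97 in WT cells of the same sort (-1.91 ± 0.51; limma adjusted p = 0.18). The Csf1 receptor gene Csf1r averaged 9.91 in BRAF and 8.17 in WT lung CD103+ cells (1.74 ± 0.48, SE, n = 2 each; limma adjusted p = 0.309).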
